A study of Mus musculus with 15 samples.

Results

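The genes described here are 38 marker genes of the cell types that surround tumour cells: 11 of fibroblasts, 12 of blood vessel endothelium and 15 of myeloid cells. They were chosen by name as widely used markers, with earlier results of these data known. All 38 were found among the 25382 genes of the deposited count table. The data are bulk mRNA libraries of primary tumours that MDAMB231 GFP+ Luc+ cells formed in mice (strain label Nod/Skid). MDAMB231 is a human breast cancer line, which here carries a fluorescent and a luminescent reporter. Libraries of the strongly adherent group (n = 4) came from cells labelled with a shear of 50 dyn/cm2, those of the weakly adherent group (n = 6) from cells labelled with 10 dyn/cm2, and those of the unsorted group (n = 5) from cells that saw no shear. All groups share the cell line, the reporters, the strain, and the removal and dissociation of the tumours. Each title also carries a number after the word Group (4, 5, 6, 7-8, 9 or 10), which is shared across adhesion groups and whose meaning the labels do not give. Libraries are named here by group and number. The labels name no separate animals either, so p-values cover only how these samples vary among themselves, and part of that may be technical.

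In a xenograft of a human line the fibroblasts, vessels and macrophages belong to the mouse host. Fibroblasts lay down collagen and other matrix, endothelial cells line the vessels and are marked by junction proteins and by receptors for vascular growth factors and angiopoietins, and myeloid cells include the macrophages that engulf debris and present antigen. Many of these markers are not restricted to their cell type: cancer cells with mesenchymal traits can transcribe matrix, receptor or lysosomal genes themselves. The reads were counted on the human build hg19, while the organism label is mouse, so reads of human tumour cells and reads of host cells that align to human genes cannot be told apart from these counts. In bulk samples, fewer cells of a type and less RNA per cell cannot be told apart.

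The members took between 0.0488% and 0.0804% of the counts of a library, which totalled from 30372619 to 45434799. The 3 libraries titled number 6 stood apart. VIM, the mesenchymal filament gene usually high in this line, lay at 6489 to 7399 CPM there (counts scaled to the library's size with TMM) and at 1143 to 4478 CPM in the other 12. CDH1, E-cadherin, which this line is known to express weakly if at all, lay at 0.267 to 5.56 CPM in number 6, while the remaining libraries had 53.1 to 549 CPM. Striated muscle genes were also counted in number 6 and in strongly adherent library 5, with ACTA1, skeletal muscle actin, at 53.4 to 350 CPM and 864 CPM. Counts of called members and correlations are therefore also given without number 6. The sums and fold changes of the adhesion groups include it.

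Detection on the human build was split within every set. Of the 38 members, 25 had a count in all 15 libraries and 21 (55.3%) had at least 10 counts in all 15, against 51.2% of all genes in the table. At the other end, 11 members (28.9%) never reached 10 counts in any library, against 35.7% of all genes. The myeloid set held 7 of those 11, the fibroblast set 3 and the endothelial set 1. A filter on low counts left 25 members for testing: 8 fibroblast, 9 endothelial and 8 myeloid. The 13 others had 271 counts in all over the 15 libraries.

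**Figure D1:**
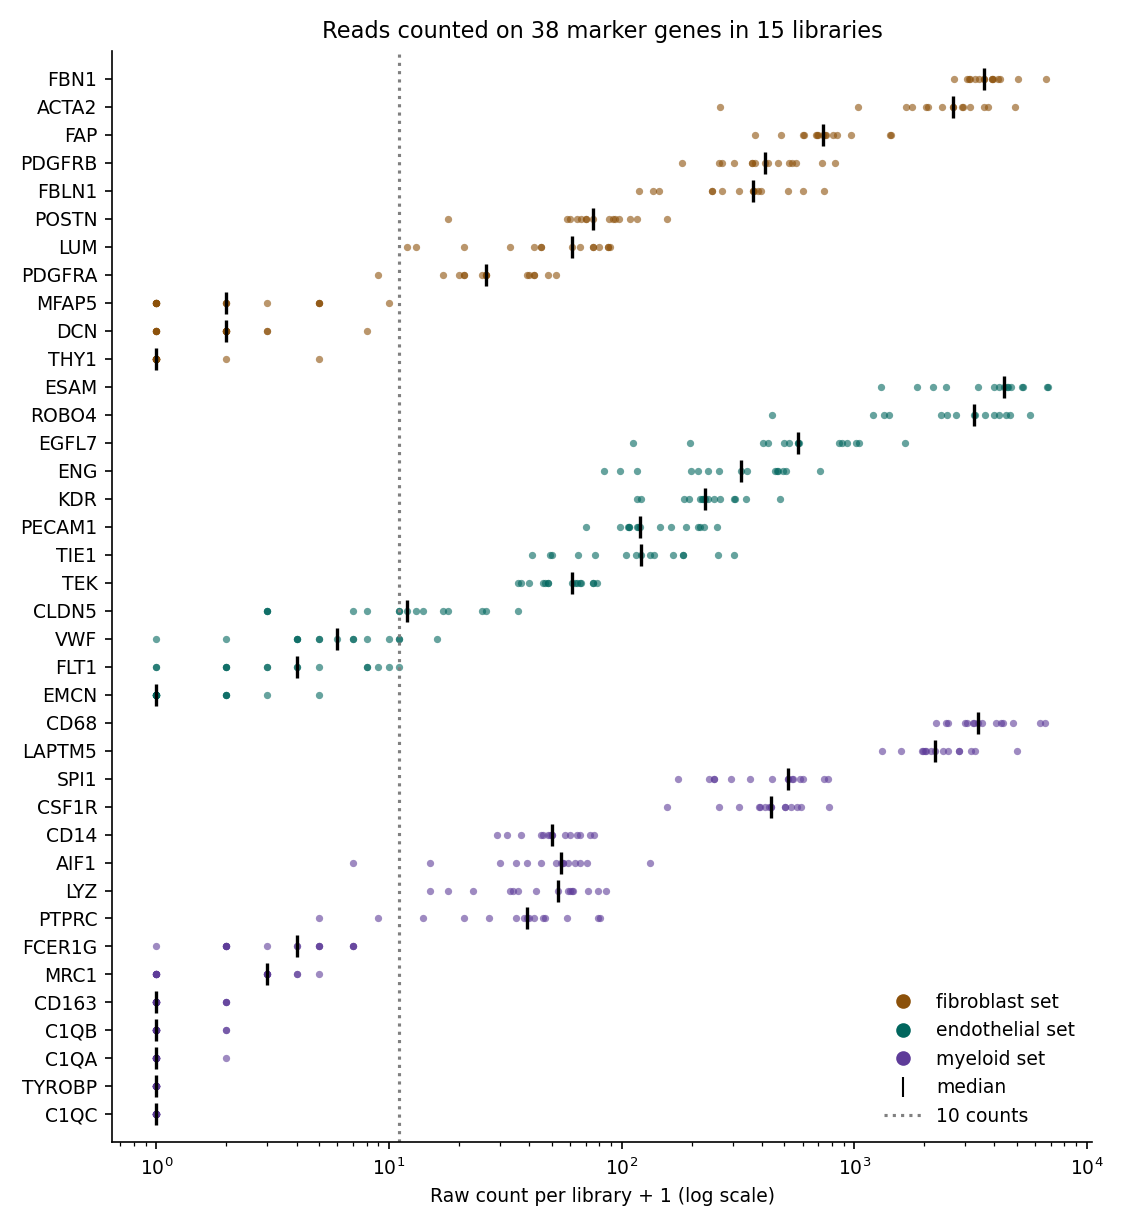
Raw counts (plus 1, log scale) of the 38 members in each of the 15 libraries, ordered by total count within the fibroblast, endothelial and myeloid sets; each point is a library, the black tick is the median and the dotted line marks 10 counts. Each set runs from the most counted genes, such as FBN1, ESAM and CD68, down to genes at or near 0, such as THY1, EMCN and C1QC.

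Hardly counted members occurred in all 3 sets. DCN, decorin, a small proteoglycan abundant in fibroblasts, had 18 counts over all libraries, with 0 in 5 of them and at most 7 in strongly adherent library 6. THY1, a surface glycoprotein of fibroblasts, had 5 counts, 4 of them in weakly adherent library 6. MFAP5, a microfibril protein, reached 9 counts in unsorted library 7-8. DCN, the marker that was to stand for fibroblasts, is therefore nearly absent from these counts.

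Among endothelial genes, VWF, the clotting factor stored in endothelial granules, had 86 counts over all libraries and reached 10 counts in 3 of them, with a highest value of 15 in unsorted library 4. FLT1, a VEGF receptor, reached 10 counts in strongly adherent library 9. EMCN, a mucin of capillaries and veins, had at most 4 counts. PECAM1, the endothelial junction protein CD31, behaved differently from these: it had 69 to 256 counts in every library.

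In the myeloid set 7 of 15 members never reached 10 counts. TYROBP, the adaptor of activating myeloid receptors, and C1QC, a chain of complement C1q, had 0 counts in all 15 libraries. A count of 0 allows up to 3 counts, which is 0.0631 to 0.1001 CPM depending on the library (counting error only). C1QA had 1 count, C1QB 2 and CD163, a scavenger receptor, 3. FCER1G, an Fc receptor chain, had at most 6 counts, and MRC1, the mannose receptor of tissue macrophages, at most 4. CSF1R and AIF1, also used as macrophage markers, had a count in every library. CD68, a lysosomal glycoprotein, was counted 2241 to 6598 times per library.

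The reads of each set lay on few genes. FBN1, the microfibril protein fibrillin-1, and ACTA2, smooth muscle actin, took 47.5% and 31.0% of the fibroblast reads, and FAP, a cell surface protease of activated fibroblasts, took 9.74%. ESAM, an endothelial adhesion molecule, and ROBO4, an endothelial guidance receptor, took 47.0% and 34.5% of the endothelial reads, and PECAM1 only 1.71%. CD68 and LAPTM5, a lysosomal membrane protein of blood cells, took 51.6% and 33.6% of the myeloid reads, while PTPRC, the pan-leukocyte antigen CD45, took 0.511%. These are shares of reads and also depend on transcript length, so they do not rank the genes by expression. A summed level of any of the 3 sets is thus largely the level of its leading pair, at 70.9% to 85.1% of the fibroblast sum, 45.0% to 90.4% of the endothelial sum and 74.1% to 95.6% of the myeloid sum, depending on the library.

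The adhesion groups did not separate on these sums. The fibroblast sum was 203 ± 51.8 CPM in strongly adherent (SD, n = 4), 216 ± 26.1 CPM in unsorted (SD, n = 5) and 225 ± 59.0 CPM in weakly adherent libraries (SD, n = 6). The endothelial sum was 206 ± 125, 245 ± 81.1 and 251 ± 66.0 CPM, and the myeloid sum 189 ± 45.8, 192 ± 16.2 and 211 ± 77.9 CPM, in the same order. The differences between group means were smaller than the SD of at least 1 group in each set.

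**Figure D2:**
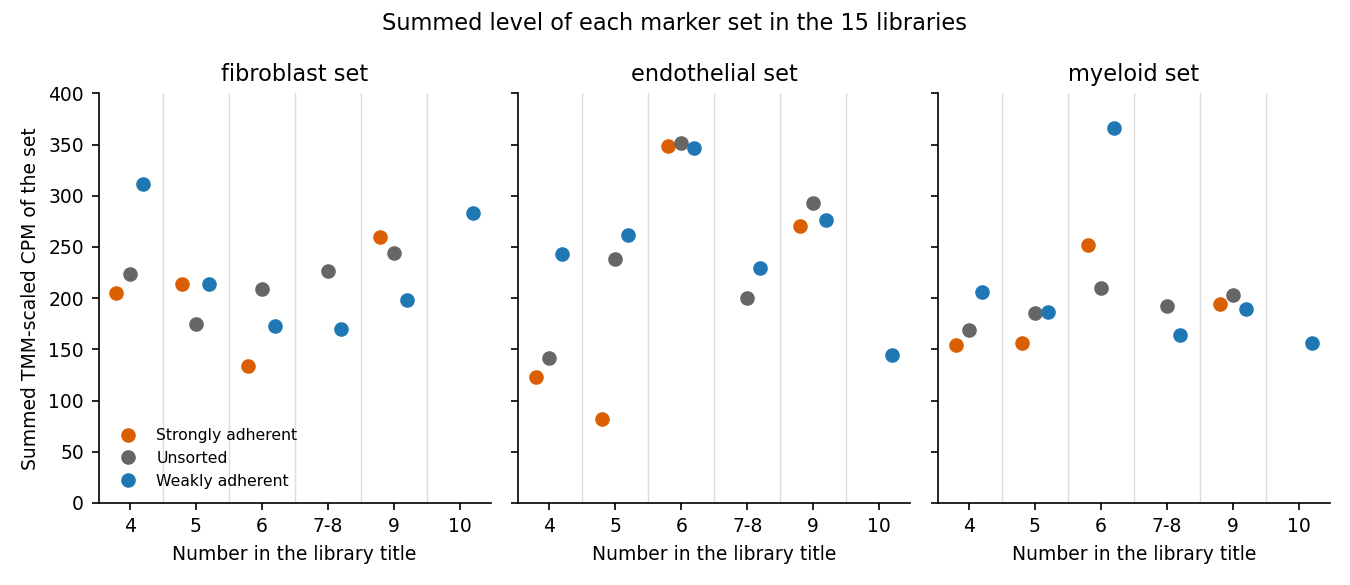
Summed TMM-scaled CPM of each marker set (y axis) in the 15 libraries, arranged by the number in the title (x axis) and coloured by adhesion group; each point is 1 library. The endothelial sum of the number 6 libraries lies between 347 and 351 CPM, above all other libraries, and strongly adherent library 5 has the lowest endothelial sum, 81.5 CPM.

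Title number 6 stood apart on the endothelial sum. It stood at 348, 351 and 347 CPM in library 6 of the strongly adherent, the unsorted and the weakly adherent group, against 81.5 to 293 CPM in the other 12 libraries. The myeloid sum stood at 252, 210 and 366 CPM in the same 3 libraries, against 154 to 206 CPM elsewhere. The fibroblast sums overlapped, at 134, 209 and 173 CPM against 170 to 311 CPM. The myeloid separation depended on the scaling: with CPM on the plain library total, unsorted library 6 stood at 202 CPM, below unsorted library 9 at 211 CPM. The endothelial sums of number 6 were the highest with either scaling.

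Weakly against strongly adherent tumours asked whether the adhesion class of the cells went with more or less marker RNA in the tumour. edgeR's quasi-likelihood test called 0 of the 25 tested members and 0 of 15190 genes (0%) at an adjusted p under 0.05. At an unadjusted p under 0.05 there were 0 members and 366 genes (2.41%). With the title number as a block, edgeR had 3 members (TIE1, PDGFRB and ROBO4) and 6.78% of genes at that level. It called 0 members and 0 genes at an adjusted p under 0.05. No member had groups that did not overlap, against 0.29% of all genes. DESeq2, limma voom and limma-trend also called 0 members. Leaving out number 6 left the count at 0. A test for any difference among the 3 groups also called 0 members and 0% of genes, with 0 members and 258 genes (1.7%) at an unadjusted p under 0.05.

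The fold changes leaned to higher values in the weakly adherent group without any call at an adjusted p under 0.05. Values are of the fit without the title number unless a block is named. The median log2 fold change was 0.24 over the 25 members, with 19 positive and 6 negative values. Over all genes tested it was -0.02, with 6991 positive and 8199 negative values. The members share the same libraries, so their signs are not independent. By set the medians were 0.21 for fibroblast, 0.27 for endothelial and 0.20 for myeloid members. TIE1, an orphan receptor that modulates angiopoietin signalling, had the largest value, 0.84 ± 0.52 (SE, 95% interval -0.26 to 1.95). With the title number as a block TIE1 had 1.21. Its level was 1.16, 1.35, 2.75 and 5.14 CPM in strongly adherent libraries 4, 5, 6 and 9, and ran from 1.17 over a median of 4.16 to 9.34 CPM in the 6 weakly adherent libraries. The groups overlapped, and weakly adherent libraries 4 and 6 lay above all strongly adherent ones.

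CLDN5, the tight junction protein of endothelium, came next with 0.83 ± 0.73, but rested on few reads and had the widest interval, -0.71 to 2.38. ROBO4 had 0.52 ± 0.58 and PDGFRB, the PDGF receptor of mural cells and fibroblasts, 0.32 ± 0.36. FBN1 had the narrowest interval, -0.33 to 0.40, around a value of 0.03. These intervals set how large a difference could have gone unseen in that fit, which is small for FBN1 and large for most endothelial members. With the title number as a block, CLDN5, ROBO4, PDGFRB and FBN1 had 0.57, 1.15, 0.62 and 0.04, none of them called.

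ESAM and ROBO4 show how wide the groups were. ROBO4 stood at 31.9, 9.29, 125 and 85.4 CPM in strongly adherent libraries 4, 5, 6 and 9, at 46.8, 78.4, 145, 63.9 and 101 CPM in unsorted libraries 4, 5, 6, 7-8 and 9, and from 32.8 over a median of 96.9 to 137 CPM in the weakly adherent ones. ESAM stood at 51.7, 27.4, 180 and 137 CPM in the strongly adherent, at 61.8, 111, 173, 92.6 and 142 CPM in the unsorted, and from 67.6 over 117 to 163 CPM in the weakly adherent libraries. Within each group the highest value of both genes was that of number 6. Without strongly adherent library 5, the lowest library of both genes, the log2 fold change between these groups was 0.16 for ROBO4 and -0.07 for ESAM, weakly over strongly adherent.

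CD68 stood at 71.3, 53.2, 176 and 95.4 CPM in strongly adherent libraries 4, 5, 6 and 9. It stood at 82.8, 102, 111, 110 and 100 CPM in the unsorted libraries, and from 61.2 over 95.7 to 193 CPM in the weakly adherent ones. The group means were 99.1 ± 54.4, 101 ± 11.3 and 107 ± 45.1 CPM (SD), and weakly over strongly adherent CD68 had a log2 fold change of 0.12 ± 0.32 (SE). Strongly and weakly adherent library 6 were the only ones above 111 CPM.

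**Figure D3:**
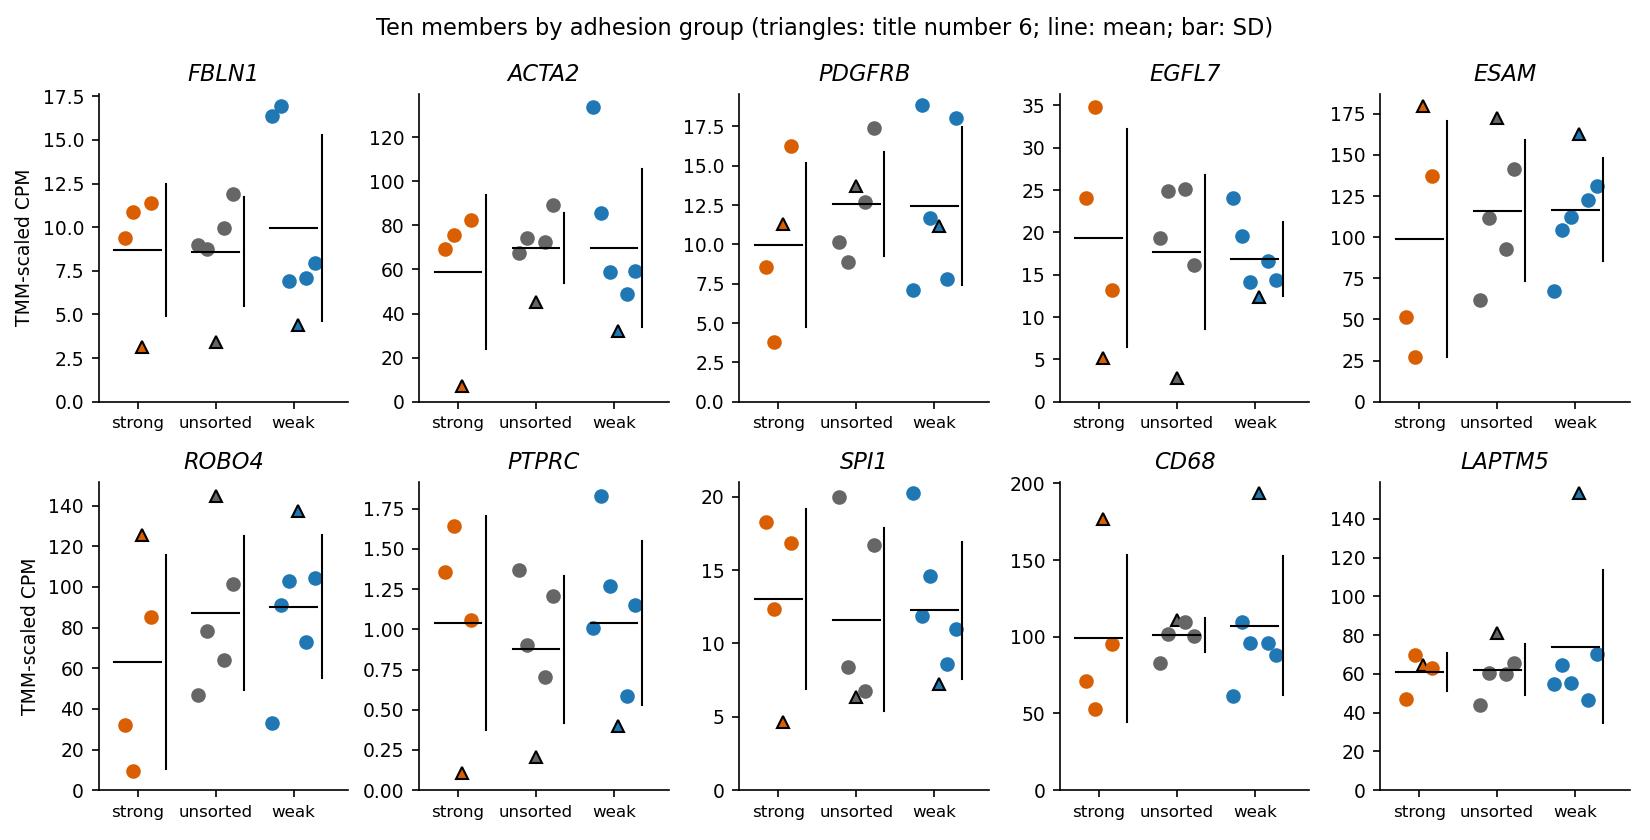
TMM-scaled CPM (y axis, from 0) of 10 members in the strongly adherent (n = 4), unsorted (n = 5) and weakly adherent (n = 6) libraries; each point is a library, triangles mark title number 6, the horizontal line is the group mean and the vertical bar is the SD. The groups overlap for every gene drawn, and for FBLN1, ACTA2, EGFL7, PTPRC, ESAM, ROBO4 and CD68 the 3 triangles lie beyond all 12 other libraries on the same side.

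The comparisons with the unsorted group gave no call either. These share their libraries with the one above and are not independent of it. Weakly adherent against unsorted, edgeR called 0 of 25 members and 0% of genes, with 0 members and 81 genes (0.533%) at an unadjusted p under 0.05. Strongly adherent against unsorted, it called 0 of 25 members and 0% of genes, with 0 members and 572 genes (3.77%) at that level. No member's groups were apart in either comparison, against 0.0724% and 1.42% of all genes. DESeq2, limma voom and limma-trend called 0 members in both. The median log2 fold change of the members was 0.08 and -0.06, against -0.00 and 0.02 over all genes. PDGFRA, the PDGF receptor of fibroblasts, had the largest value of strongly adherent against unsorted tumours, 0.68 ± 0.44, and 0.57 ± 0.40 of weakly adherent against unsorted, at levels around 1 CPM.

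The title number went with larger differences. In a fit with number and adhesion group as terms, edgeR called 3 of 25 members for any difference among the 6 numbers, where it called 7.9% of all genes. They were FBLN1, the matrix protein fibulin-1 (adjusted p = 0.0264), SPI1, the transcription factor PU.1 that drives myeloid development (0.0265), and PTPRC (0.0308). DESeq2 called 12 of the 25, and 3343 of the 15190 genes tested. Without number 6 edgeR called 0 of them, with adjusted p of 0.552, 0.281 and 0.489 for the same 3 genes. Leaving out single libraries of other numbers ended calls as well: that of FBLN1 without unsorted library 9 (0.0527), that of SPI1 without strongly adherent library 4 (0.0625) or unsorted libraries 4 (0.0596), 7-8 (0.0504) or 9 (0.0554), and that of PTPRC without strongly adherent libraries 4 (0.0695) or 9 (0.0508), unsorted libraries 4 (0.0658) or 9 (0.0624) or weakly adherent library 4 (0.0690). Without strongly or unsorted library 6, adjusted p of these genes was 0.123 and 0.0905 for FBLN1, 0.0947 and 0.0732 for SPI1, and 0.124 and 0.0887 for PTPRC.

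Each number was then set against the mean of the other 5, all treated alike. The p-values rest on the spread of libraries left after the number and group terms, not on how numbers vary among themselves. Number 6 had 14 of 25 members past the threshold in edgeR, with 27.9% of all genes called. Of these 6 were higher, where 11.6% of all genes were, and 8 were lower, where 16.4% were. Numbers 4, 5, 7-8, 9 and 10 had 0 members each, with 0%, 0%, 0.0658%, 0.0197% and 0% of genes called. Number 6 thus differed across the whole transcriptome, and nothing particular to the members is read from their count. The median log2 fold change of number 6 was -0.42 over the members and 0.01 over all genes tested.

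Across the sets the direction split. Among fibroblast members 0 were higher and 3 of 8 lower, among endothelial members 4 were higher and 1 of 9 lower, and among myeloid members 2 were higher and 4 of 8 lower. No set moved as a block. Of the 14 called members, 5 were called in all 23 other settings run (ACTA2, FBLN1, PTPRC, CD68 and SPI1), and all 14 kept their sign in them.

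**Figure D4:**
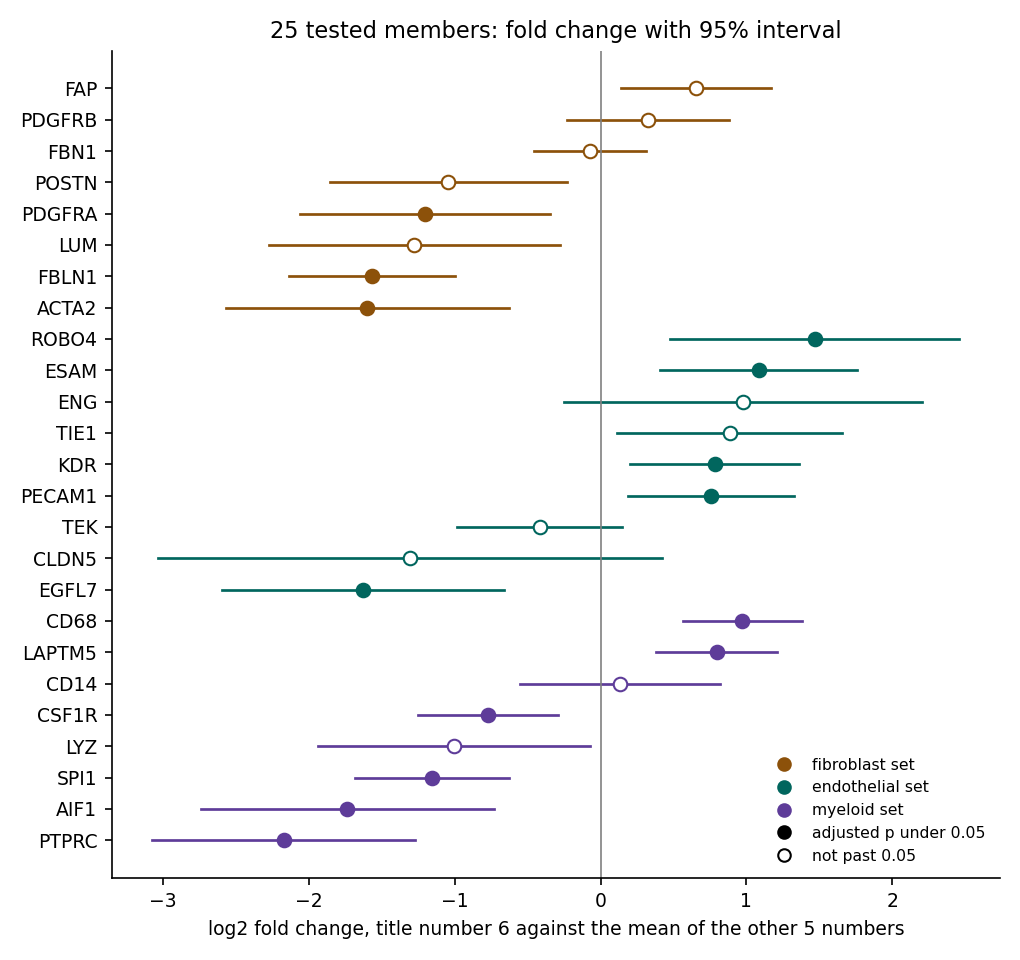
log2 fold change of title number 6 against the mean of the other 5 numbers (x axis), adjusted for adhesion group, with 95% intervals, for the 25 tested members ordered within each set; filled points passed an adjusted p of 0.05 in edgeR. PTPRC has the lowest value, -2.17, and ROBO4 the highest, 1.47.

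In the fibroblast set ACTA2, FBLN1 and PDGFRA were lower in number 6. ACTA2 stood at 7.03, 45.2 and 32.0 CPM in library 6 of the strongly adherent, the unsorted and the weakly adherent group, and from 48.8 over a median of 73.3 to 134 CPM in the other 12, a log2 fold change of -1.60 ± 0.43 (SE, adjusted p = 0.0242 in edgeR). FBLN1 stood at 3.16, 3.43 and 4.39 CPM against 6.89 over 9.68 to 17.0 CPM, or -1.57 ± 0.26 (0.00140 in edgeR). For both genes the 3 libraries lay below all others, which 10.4% of all genes did in number 6. PDGFRA had -1.21 ± 0.40 (0.0388 in edgeR), a call lost without any of 9 single libraries (strongly adherent 4, 6 and 9, unsorted 4, 6, 7-8 and 9, weakly adherent 6 and 10), with adjusted p up to 0.147 without unsorted library 6.

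The rest of the fibroblast set did not pass. LUM, the collagen-binding proteoglycan lumican, had -1.28 (adjusted p = 0.0553 in edgeR), and POSTN, periostin, a matrix protein of activated fibroblasts, had -1.05 (0.0542). FAP had a positive value, 0.66 (0.0565), PDGFRB had 0.32, and FBN1 had -0.07. FBN1 and ACTA2, the most counted genes of the set, thus had unlike values.

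In the endothelial set ESAM, ROBO4, PECAM1 and KDR were higher in number 6 and EGFL7 was lower. ESAM stood at 180, 173 and 163 CPM against 27.4 over 108 to 142 CPM in the other 12 libraries, a log2 fold change of 1.08 ± 0.30 (adjusted p = 0.0253 in edgeR). ROBO4 stood at 125, 145 and 137 CPM against 9.29 over 75.7 to 105 CPM, or 1.47 ± 0.44 (0.0363 in edgeR). Both lay above all other libraries, as 5.63% of all genes did in number 6. PECAM1 stood at 5.80, 5.75 and 5.77 CPM, and 1 other library, weakly adherent library 5 with 7.23 CPM, was higher; its value was 0.76 ± 0.26 (0.0476). KDR, the main VEGF receptor, had 0.78 ± 0.27 (0.0461).

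These 4 calls were close to the threshold. ESAM lost its call without strongly adherent library 6 (adjusted p = 0.139), unsorted library 6 (0.0686), strongly adherent library 4 (0.0518) or unsorted library 7-8 (0.0517). ROBO4 lost it without any of 8 single libraries (strongly adherent 4 and 6, unsorted 4, 6, 7-8 and 9, weakly adherent 7-8 and 10; up to 0.168). KDR lost it without any of 9 (those 8 and unsorted 5; up to 0.205), and PECAM1 without any of 10 (strongly adherent 4 and 6, all 5 unsorted, weakly adherent 4, 6 and 7-8; up to 0.185). Number 6 was lower for EGFL7, an endothelial secreted factor that hosts a microRNA in an intron: 5.22, 2.82 and 12.4 CPM against 13.2 over 19.5 to 34.8 CPM, below all others, a log2 fold change of -1.63 ± 0.43 (0.0210 in edgeR). Its call was lost without strongly adherent library 6 (0.107) or unsorted library 6 (0.0593). TIE1 had 0.88, ENG, the TGF-beta co-receptor endoglin, had 0.97, TEK, the angiopoietin receptor, had -0.42 and CLDN5 had -1.31, none of them past the threshold.

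In the myeloid set CD68 and LAPTM5 were higher in number 6. CD68 stood at 176, 111 and 193 CPM in the number 6 libraries, against 53.2 over 95.5 to 110 CPM in the other 12, a log2 fold change of 0.97 ± 0.19 (adjusted p = 0.00346 in edgeR). The 3 values lay above all others, though unsorted library 6 only just did. LAPTM5 had 64.6, 80.9 and 153 CPM against 44.0 over 60.1 to 70.3 CPM, or 0.80 ± 0.19 (0.0102 in edgeR). Weakly adherent library 6 carried that call: without it the value was 0.37 and adjusted p 0.134.

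PTPRC, SPI1, AIF1 and CSF1R were lower. PTPRC stood at 0.107, 0.204 and 0.399 CPM against 0.584 over 1.18 to 1.83 CPM, a log2 fold change of -2.17 ± 0.42 (adjusted p = 0.00301 in edgeR), and lay below all others. SPI1 stood at 4.63, 6.34 and 7.25 CPM against 6.75 over 13.4 to 20.2 CPM, or -1.16 ± 0.24 (0.00496 in edgeR). In each gene the strongly adherent library 6 was the lowest of all 15.

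AIF1, the macrophage protein IBA1, had -1.74 ± 0.46 (adjusted p = 0.0162 in edgeR), and CSF1R, the receptor for the macrophage growth factor CSF1, had -0.77 ± 0.22 (0.0223). Without strongly adherent library 6 these were -1.30 and -0.47, with adjusted p of 0.0831 and 0.117, and AIF1 also lost its call without unsorted library 6 (0.0680). LYZ, lysozyme, had -1.01 (0.0981) and CD14, the endotoxin co-receptor, had 0.13. The myeloid calls thus ran both ways, with CD68 and LAPTM5 on one side and PTPRC, SPI1, CSF1R and AIF1 on the other.

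Other genes of the same cell types were mostly lower in number 6 where they were called. Of 18 tested further fibroblast and matrix genes 11 were called in number 6, 1 higher and 10 lower. Over all genes tested 27.9% were called, 11.6% higher and 16.4% lower. COL1A1 and COL5A1, fibrillar collagens, had log2 fold changes of -1.66 and -0.89, SPARC, a collagen-binding matrix protein, had -1.85 and COL6A3, a collagen VI chain, had 1.07. The summed level of that list was 1865 to 1943 CPM in number 6 and 2065 to 3767 CPM in the other 12 libraries. Of 10 pericyte and smooth muscle genes 5 were called, 1 higher (CSPG4, 1.07) and 4 lower, among them NOTCH3, the receptor of mural cells, at -5.82 and MCAM at -0.77.

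Of 11 tested further endothelial genes 5 were called, 1 higher and 4 lower, where 11.6% and 16.4% of all genes were. Among the endothelial members, by contrast, 4 were higher and 1 was lower. CDH5, VE-cadherin, the adherens junction protein of endothelium, had 3.11 (adjusted p = 0.000381 in edgeR), while SOX18 and ERG, endothelial transcription factors, had -1.50 and -2.07. Of 10 tested further myeloid genes 6 were called, 1 higher (MSR1, a scavenger receptor, with adjusted p = 0.00971) and 5 lower, among them CTSS, a lysosomal protease, at -1.12 and CYBB, the phagocyte oxidase, at -1.39. Of all 24 further myeloid genes 12 never reached 10 counts, and 5 had none in any library, MARCO among them. None of the 8 lists had a gene called among the adhesion groups.

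For other cell types, counts are to be read against the 11.6% of all genes that were higher and the 16.4% that were lower in number 6. Of 4 tested lymphoid genes 3 were lower, CD3D among them at -5.56, and the sum of that list was 1.55 to 2.58 CPM in number 6 against 2.50 to 10.7 CPM elsewhere; MS4A1, CD2 and NCR1 had no count in any library. Of 14 striated muscle genes 6 were higher and 0 lower, with a sum of 170 to 1091 CPM in number 6 against 6.65 to 2810 CPM in the others. No adipocyte gene (0 of 4 tested) and no erythroid gene (0 of 2) was called. The part of these cells, of the VIM and CDH1 difference, and of whatever the number stands for in the members' values was not tested.

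Covariation within the sets was weak on the whole. It is given as Pearson's r of log2 CPM over libraries, as a description, since all genes share the same libraries and their scaling. With 8 fibroblast members the median over 28 pairs was 0.35 in 15 libraries and 0.37 in the 12 without number 6. With 9 endothelial members the median over 36 pairs was 0.26 and 0.37, and with 8 myeloid members the median over 28 pairs was -0.06 and 0.11. Pairs of all genes had a median of -0.00 in both. Pairs from different sets had medians of 0.10 (fibroblast and endothelial), 0.26 (fibroblast and myeloid) and 0.05 (endothelial and myeloid) in the 12 libraries. The median between fibroblast and myeloid members was thus above that among myeloid members.

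**Figure D5:**
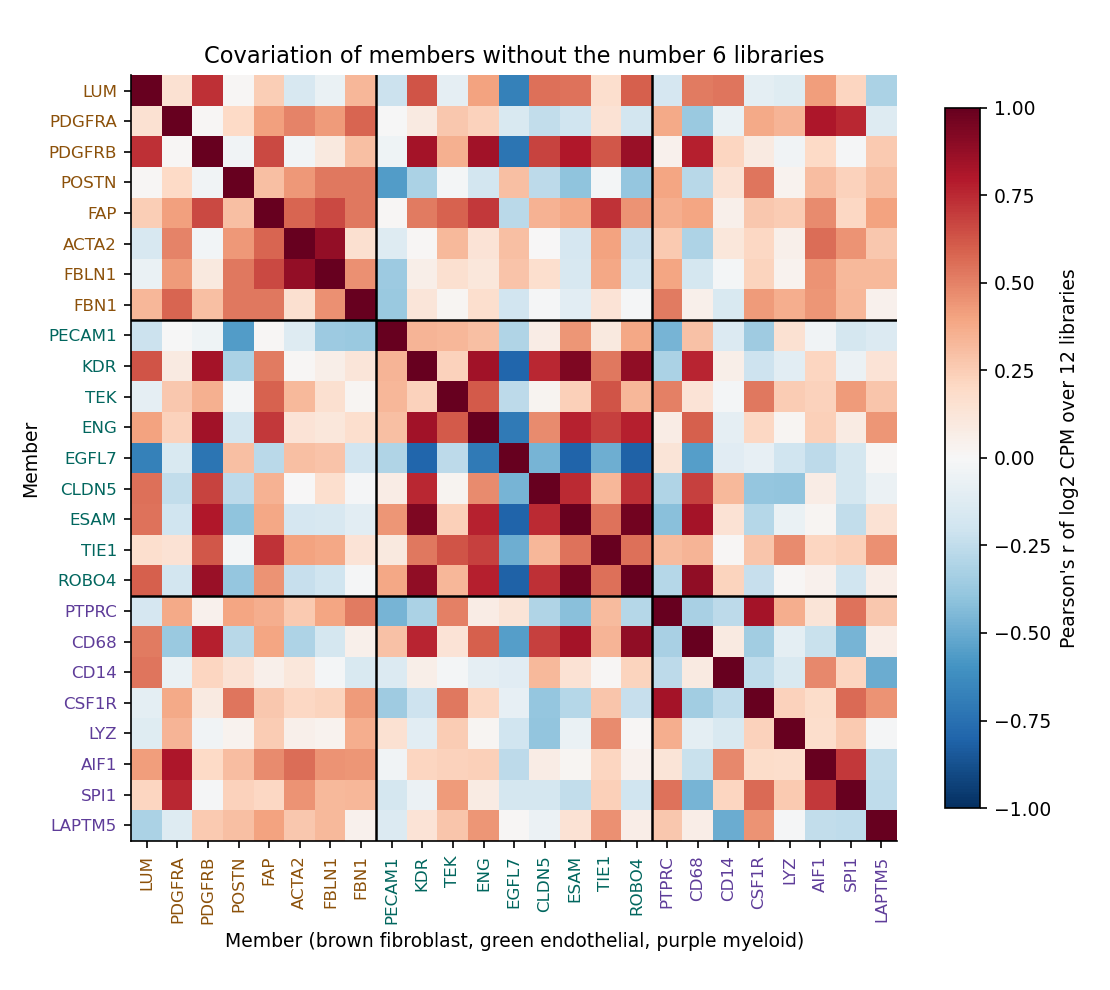
Pearson's r of log2 CPM (colour, from -1 to 1) between the 25 members with at least 10 counts in at least 4 libraries, over the 12 libraries without title number 6; black lines part the fibroblast, endothelial and myeloid sets. ESAM, ROBO4, KDR and ENG form a red block that takes in PDGFRB and CD68 from the other sets, and EGFL7 is blue against all 6.

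The highest r lay within the endothelial set, and some pairs across sets came close. A group picked after its values were seen, ESAM, ROBO4, KDR, ENG, PDGFRB and CD68, had 15 pairs with r from 0.60 to 0.96 over the 12 libraries, all positive, with a median of 0.83. ESAM and ROBO4 had 0.97, 0.96 and 0.92 over 15, 12 and 11 libraries, the last without strongly adherent library 5 as well. ROBO4 and CD68 had 0.81, 0.89 and 0.79, and PDGFRB and ROBO4 had 0.80, 0.87 and 0.72. Over 11 libraries the lowest of the 15 pairs fell to 0.38 and the median to 0.69, so strongly adherent library 5 carried part of these correlations.

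Strongly adherent library 5 was the lowest of the 15 for 5 of the 9 tested endothelial members (KDR, ENG, CLDN5, ESAM and ROBO4) and the highest for EGFL7. EGFL7 ran against the group above: its r with the 6 genes lay between -0.81 and -0.55 over 12 libraries and between -0.67 and -0.25 over 11. PECAM1, the endothelial marker by name, had r of 0.45 with ESAM over 12 libraries and stood outside the block in the plot of correlations. RefSeq's mouse assembly GRCm38.p6, used here for gene order only, has 2 coding genes between ROBO4 and ESAM and 0 between PDGFRB and CSF1R, whereas the order on the human build was not examined.

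Further groups of pairs stood out among the fibroblast and myeloid members. ACTA2 and FBLN1 had r of 0.84, 0.88 and 0.88 over 15, 12 and 11 libraries. PTPRC and CSF1R had 0.89, 0.83 and 0.80. PTPRC, CSF1R, SPI1, AIF1 and LYZ, a group also picked after its values were seen, had 10 pairs with a median of 0.76 over 15 libraries and 0.31 over 12. Number 6, where these genes were low together, therefore carried much of that median. CD68 and LAPTM5 had a median r of -0.42 with these 5 genes over 15 libraries and -0.23 over 12. CD68 and SPI1 had -0.70, -0.47 and -0.67 over 15, 12 and 11 libraries. By Spearman's rho over 12 libraries, CD68 had 0.48 with ESAM, 0.52 with ROBO4 and -0.68 with SPI1, so its ties to ESAM and ROBO4 were weaker by rank.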

How the data were processed

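The authors deposited 2 tables for the 15 libraries: raw counts of 25382 gene symbols, and log2 values that equal log2 of the count over a size factor plus 1 to within 5.15e-14. Per the labels' protocols, a TruSeq Stranded kit and 50 bp single-end sequencing were used. The submitters' processing notes list STAR, HTSeq, DESeq2, cutadapt and FastQC, and the build hg19. Versions and strand counting are not given in the sources used here, so overlapping and antisense genes cannot be separated. The columns left unmapped numbered 0.

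The members and all gene lists were chosen with earlier results of these data known. All 38 members are named, and from each further list at most 4 genes. Counts were fitted in R 4.3.3 with edgeR 4.0.16 (TMM, filterByExpr by group, robust quasi-likelihood F-test, two-sided, Benjamini-Hochberg over 15190 genes, threshold 0.05), with adhesion group alone, or with title number and adhesion group as terms. The filter kept 99.98% of the counts. The SE is the fold change over the square root of F, and 95% intervals are approximate. Correlations used log2 CPM with a prior count of 2. Limits from a count of 0 use 3 counts and cover counting error only.

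Alternatives were DESeq2 1.42.0, limma 3.58.1 (voom, and limma-trend on the deposited log2 values), other scalings and filters, a replicate block, and libraries left out. Rank correlations over 12 libraries and correlations over 11 were added after seeing the data. The fits were also run on simulated counts with a smaller spread between libraries than in these data. Those runs therefore do not show how many differences were missed here.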

Additional observations from a re-analysis of the deposited data

Results flagged for a closer look

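Values that stood far from the rest of their adhesion group, by Dixon's test at the 95% level, were found in 6 of 84 groups of values examined, and chance alone would give about 1 in 20. They are given as values.

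In weakly adherent library 6, CD68 stood at 193 CPM (next of the group 110), LAPTM5 at 153 CPM (next 70.3) and the summed myeloid set at 366 CPM (next 206). The sum is mostly these 2 genes, so the 3 values are not independent. In weakly adherent library 4, FBN1 stood at 152 CPM (next 111). In weakly adherent library 10, AIF1 stood at 3.58 CPM (next 1.75). In strongly adherent library 5, CLDN5 stood at 0.0421 CPM (next 0.267), a value of few counts.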

How the results depend on the processing

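The adhesion comparisons called 0 members in all settings run. With the title number as a replicate block, edgeR called 0 genes and 0 members in each, with 3 members (TIE1, PDGFRB and ROBO4; log2 fold changes 1.21, 0.62 and 1.15, weakly over strongly adherent) and 6.78% of genes at an unadjusted p under 0.05 in the first comparison, and DESeq2 called 0 members and 30 genes (weakly against strongly adherent), 23 (strongly adherent against unsorted) and 32 (any difference). Libraries of the same number had correlated deviations in 11 of 13 pairs (r over 0.1, range 0.0164 to 0.767). So had 17 of 61 pairs of different numbers (range -0.722 to 0.602). The highest r of the same-number pairs were those of number 6, from 0.683 to 0.767. Of 14 libraries, 9 correlated best with their own number. For any difference among numbers, DESeq2 called 3343 of 15190 genes and 12 members. With limma voom 5 members were called, and nothing particular to the members is read from these counts. Without number 6 edgeR called 3 genes and 0 members. Without number 6 and strongly adherent library 5 it called 54 genes and 0 members. Leaving out 1 library gave 386 to 1621 genes and 0 to 7 members, 0 without unsorted library 9 and 7 without strongly adherent library 5. For number 6 it gave 1981 to 4231 genes and 6 to 15 members, the fewest (6 and 7) without strongly adherent or unsorted library 6. Of the other numbers with more than 1 library, 7-8 and 9 had 1 member by DESeq2. Number 9 also had 1 without number 6 and strongly adherent library 5. Number 10 is a single library, and its calls in these settings are not given. The cause was not tested. The 13 members that were not tested had few counts, most of them below 10, and the reason for this was not tested.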
